A study of Mus musculus with 11 samples.

Results

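Expression of 7 genes used to describe how mature a beta cell is, or to which beta cell subtype it belongs, was followed in RNA-seq of sorted mouse beta cells after exposure to interferon gamma (IFNγ). The maturity genes were *Ucn3*, *Syt4* and *Npy*, and the subtype genes were *Cfap126*, *St8sia1*, *Cd9* and *Cd81*. They were found by gene symbol among the 55487 genes of the expression tables, and all 7 passed the filter on low counts that left 16252 genes for testing. Islets of C57BL/6 male mice (C57BL/6JRj in the study's methods) aged 12 weeks were kept in culture with IFNγ at 50 pg/mL during 20 h, or left untreated. Beta cells were then sorted as live EpCam+, CD24low, CD71+ cells that lacked CD45, TER119 and CD31, and cells from treated islets were split by surface PD-L1, a ligand that dampens T cells and that IFNγ induces. This gave 4 control libraries from untreated islets, 4 PD-L1high libraries and 3 PD-L1low libraries, numbered as replicates 1 to 4. PD-L1low was analysed for replicates 2 to 4. The PD-L1high and PD-L1low groups are sorted fractions of treated islets, so they differ from each other by the gate and from control by both the treatment and the gate. The labels do not say that replicates came from separate animals, while the study's methods call each n an independent biological sample. The tests judge differences against the spread between these libraries.

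Beta cells finish their maturation after birth, when they gain tight control of insulin release by glucose. *Ucn3* encodes urocortin 3, a peptide released with insulin that acts on delta cells and is a standard marker of mature mouse beta cells. *Syt4* encodes synaptotagmin 4, a vesicle protein that rises with maturation and lowers the calcium sensitivity of insulin release, whereas *Npy*, the gene of neuropeptide Y, is active in immature beta cells and low in adult ones. *Cfap126*, also called Flattop, is an effector of planar cell polarity that separates mature from proliferation-prone mouse beta cells. *St8sia1* encodes GD3 synthase, the sialyltransferase that makes the ganglioside GD3, and together with the tetraspanin gene *Cd9* it defines antigenic subtypes of human beta cells. *Cd81* encodes a related tetraspanin that marks immature or dedifferentiated beta cells.

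The member that changed was *St8sia1*. It was lower in PD-L1high cells than in control cells and than in PD-L1low cells, and its CPM values did not overlap between any pair of groups. Of all tested genes, 1.61% had PD-L1high wholly below control, 3.59% PD-L1high wholly below PD-L1low and 1.28% PD-L1low wholly above control. In TPM, a scale explained below, control libraries overlapped both treated fractions. The difference of PD-L1low from control was not called, and the call of PD-L1high against control was kept in 15 of 20 alternative analyses. The other 6 members passed the test in none of the 3 comparisons. *Ucn3*, *Syt4* and *Cd81* were measured at 28.6 to 463 CPM (counts scaled to library size with a trimmed mean of M-values), *Cfap126* and *Cd9* at a few CPM, and *Npy* at the edge of detection.

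Library totals ranged from 10422018 to 15810769 expected counts, and mitochondrial genes took 5.54% to 13.3% of them, with ranges that overlapped between the groups. Control replicate 1 had the highest mitochondrial share and stood apart from the other control libraries, with a chi-square per gene of 52.4 to 100.7 against 9.75 to 42.1 between all other libraries of 1 group. Each result on *St8sia1* is therefore also given without it. The summed level of 8 beta cell markers, among them *Ins1*, *Ins2* and *Iapp*, was 61819 to 95234 CPM in control, 73093 to 78720 in PD-L1low and 63064 to 91612 in PD-L1high libraries, and none of the 8 passed the test in any comparison. Markers of acinar, endothelial, stellate and erythroid cells and of leukocytes each summed to at most 5.79 CPM in any library, and 4 Schwann and neural markers to 21.8 to 41.0 CPM. Of 4 duct markers, the sum of 105 to 470 CPM came almost wholly from *Spp1*. *Cd274*, the gene of PD-L1, followed the gate, with 20.4 ± 4.08 CPM in control (SD, n = 4), 38.1 ± 8.35 in PD-L1low (n = 3) and 218 ± 44.8 in PD-L1high libraries (n = 4). All 10 genes of a list of IFNγ targets rose in PD-L1high cells against control and 6 of 10 rose in PD-L1low cells, where 0.941% and 0.0615% of all tested genes rose. The list includes *Cd274*, whose protein set the gate, and was chosen with earlier results of these data known. Its counts thus describe the sort and are no independent test. *Igtp*, an interferon-inducible GTPase gene, had 8.25, 65.4 and 406 CPM in control, PD-L1low and PD-L1high cells, and *Irgm1*, another gene of that GTPase family, had 28.8, 108 and 533 CPM.

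On a scale that allows genes to be compared, TPM, which divides by transcript length and scales each library to the same sum, *Ucn3* was the most abundant member, with a median level of 267 TPM over the 11 libraries and a range of 124 to 336. *Syt4* followed at 99.0 TPM with a range of 52.5 to 123, just below the lowest *Ucn3* value. *Cd81* had a median of 39.2 TPM and reached at most 51.2, so that it did not overlap *Syt4*. *Cfap126* and *St8sia1*, at medians of 8.72 and 8.19 TPM, covered nearly the same range and could not be ranked against each other. *Cd9* had 2.64 TPM and overlapped *Npy* at 1.10 TPM, whose lowest value was 0. The order from *Ucn3* to *Cd81* thus held in every library, and below it *Cfap126* overlapped both *St8sia1* and *Cd9*, while the highest *Cd9* value (4.78 TPM) stayed just under the lowest *St8sia1* value (4.90 TPM).

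**Figure D1:**
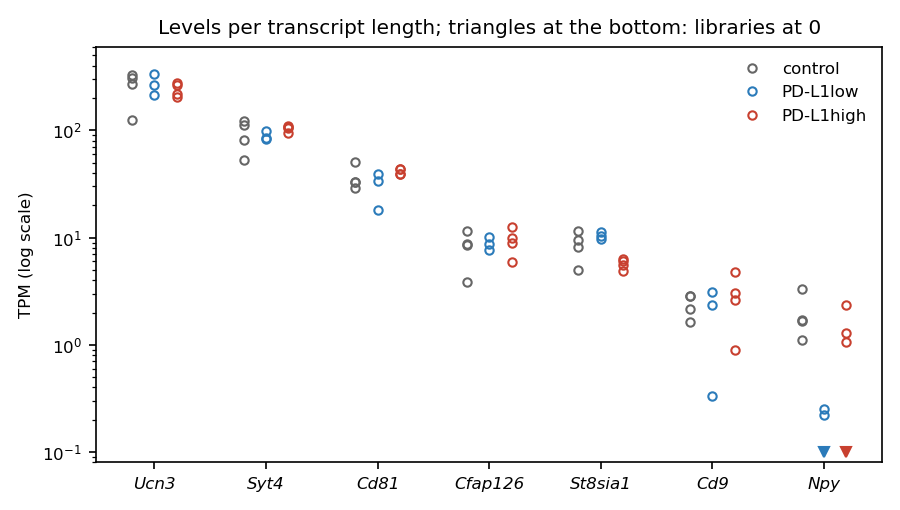
Level of the 7 members in TPM on a log axis, ordered by median, with 1 point per library and colours for control, PD-L1low and PD-L1high. Ucn3, Syt4 and Cd81 occupy separate ranges, Cfap126 and St8sia1 share 1 range, and a triangle marks a library at 0, which occurs for Npy in 1 PD-L1low and 1 PD-L1high library.

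*St8sia1* lies on the minus strand of chromosome 6 (GRCm38, 142821545 to 142964452) and has 3 annotated transcripts. Its counts were well above the filter, from 510 to 1638 per library. In control replicates 1 to 4 it had 59.6, 74.1, 68.8 and 79.1 CPM. In PD-L1high replicates 1 to 4 it had 40.3, 49.7, 45.8 and 53.0 CPM, and in PD-L1low replicates 2 to 4 it had 82.1, 88.1 and 115 CPM. The highest PD-L1high library thus lay below the lowest control library, and the highest control library lay below the lowest PD-L1low library. Libraries of PD-L1high lay wholly below control for 1.61% of all genes and wholly below PD-L1low for 3.59%. Within replicate numbers, PD-L1high was below control in 4 of 4 pairs and below PD-L1low in 3 of 3. PD-L1low was above control in 3 of 3. Because the groups do not overlap, any matching of libraries would give these tallies, so they add nothing to the ranges. Such a tally is not particular to *St8sia1*, since between the treated fractions *Ucn3* was also lower in 3 of 3, and *Syt4*, *Cfap126* and *Cd81* higher in 3 of 3, without being called.

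The group means of *St8sia1* were 70.4 ± 8.31 CPM in control (SD, n = 4), 95.1 ± 17.5 in PD-L1low (n = 3) and 47.2 ± 5.44 in PD-L1high cells (n = 4). Against control, PD-L1high cells had a log2 fold change of -0.58 (standard error 0.107, 95% interval -0.81 to -0.35), or 0.671 of the control level, with an adjusted p of 0.0116 by edgeR's quasi-likelihood test. Without control replicate 1 the log2 fold change was again -0.58, with an adjusted p of 0.0335. The call was lost when any of 4 other libraries was left out (control replicate 3 or PD-L1high replicate 2, 3 or 4, adjusted p 0.0520 to 0.0850) and without the replicate term (adjusted p 0.0753), while the log2 fold change stayed between -0.62 and -0.52. Only 8 of the 16252 genes, 0.0492%, were called lower in this comparison, and 0.991% were called in either direction.

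*St8sia1* also differed between the treated fractions. PD-L1high cells had 0.525 of the PD-L1low level (95% interval 0.440 to 0.625), a log2 fold change of -0.93 (standard error 0.119) with an adjusted p of 0.000593. In this comparison 15 genes, 0.0923% of those tested, were called lower and 0.732% were called in all. The call was kept in 20 of 20 alternative analyses, with log2 fold changes from -1.03 to -0.83, and it was -0.93 without control replicate 1 (adjusted p 0.000591).

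Against control, PD-L1low cells had a log2 fold change of 0.35 for *St8sia1* (standard error 0.118, 95% interval 0.10 to 0.61). Its unadjusted p of 0.00906 did not hold after adjustment over all genes (adjusted p 0.9998, edgeR), and 0.0800% of genes were called in this comparison against 2.10% with an unadjusted p under 0.05. The difference was 0.35 without control replicate 1 and ranged from 0.25 to 0.45 over 20 alternatives. Libraries of these groups did not overlap with PD-L1low higher for 1.28% of genes.

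**Figure D2:**
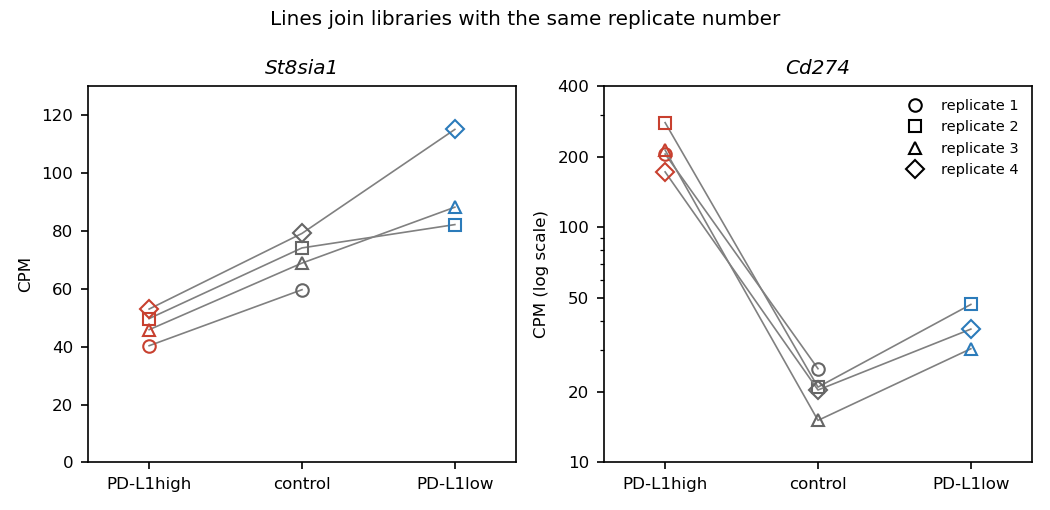
Level of St8sia1 (left, linear axis) and of Cd274 (right, log axis) in CPM in PD-L1high, control and PD-L1low libraries, with lines joining libraries of the same replicate number. St8sia1 climbs from 40.3 to 53.0 CPM in PD-L1high to 82.1 to 115 CPM in PD-L1low (the line of replicate 1 ends at control), whereas Cd274 is lowest in control and highest in PD-L1high.

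The order PD-L1high below control below PD-L1low, with no overlap between groups, was examined after seeing the data and was shared by 3 of the 16252 genes, 0.0185%. The others were *Svil*, which encodes the actin-binding protein supervillin, and the zinc finger gene *Zfp704*, with log2 fold changes of -0.54 and -0.44 between the treated fractions that missed the threshold (adjusted p 0.0614 and 0.116, edgeR). *St8sia1* kept this order with scaling by library size, and 0 genes kept it in TPM. Leaving out a library cannot create an overlap in these values, so it is no check of the order. In TPM, *St8sia1* had 4.99 to 11.4 in control, 9.79 to 11.4 in PD-L1low and 4.90 to 6.37 in PD-L1high libraries, so that the treated fractions stayed apart and control overlapped both. Control replicate 1 was the control library that overlapped PD-L1high in TPM. On the other side, control replicate 4 (11.42 TPM) lay above the highest PD-L1low library (11.36 TPM), so the overlap does not rest on control replicate 1 alone. The mean transcript length that RSEM assigned to *St8sia1* varied between 7093 and 8991 bases. The noncoding gene *Gm7457* on the opposite strand of the same locus had at most 1.01 CPM.

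Other islet cell types were measured alongside. Markers of pancreatic polypeptide (PP) cells, *Ppy* and *Pyy*, summed to 150 to 382 CPM in control, 26.8 to 33.5 in PD-L1low and 233 to 562 in PD-L1high libraries, and 7 alpha cell markers summed to 792 to 1874, 707 to 834 and 969 to 1988 CPM. The 5 delta cell markers summed to 6.82 to 33.4, 3.51 to 9.19 and 11.6 to 39.5 CPM, with 1, 2 and 1 of the 5 at 0 in every library of these groups. PP markers were therefore lowest in the fraction where *St8sia1* was highest, and their part in the *St8sia1* difference was not tested. In bulk RNA, fewer cells of a type and less RNA per cell cannot be told apart.

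The sequence just upstream of *St8sia1* is shown with those of *Ucn3*, a member that was not called, and of *Cd274*, which followed the gate. Each is the 250 bases before the annotated start (RefSeq, GRCm38.p6), written 5′ to 3′ on the strand of the gene, with matches to GGGCGG and CCAAT on either strand in capitals. The regions are chr6:142964453-142964702 (minus strand), chr13:3945350-3945599 (minus strand) and chr19:29367188-29367437 (plus strand).
St8sia1: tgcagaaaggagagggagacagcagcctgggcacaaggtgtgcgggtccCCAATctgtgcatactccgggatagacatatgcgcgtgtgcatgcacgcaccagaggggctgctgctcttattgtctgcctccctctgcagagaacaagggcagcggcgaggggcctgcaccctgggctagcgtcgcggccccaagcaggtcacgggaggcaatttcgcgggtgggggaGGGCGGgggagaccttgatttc
Ucn3: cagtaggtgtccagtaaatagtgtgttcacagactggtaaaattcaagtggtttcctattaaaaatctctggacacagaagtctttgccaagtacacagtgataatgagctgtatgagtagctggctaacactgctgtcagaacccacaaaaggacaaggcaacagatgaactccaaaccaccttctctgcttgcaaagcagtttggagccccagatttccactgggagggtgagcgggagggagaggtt
Cd274: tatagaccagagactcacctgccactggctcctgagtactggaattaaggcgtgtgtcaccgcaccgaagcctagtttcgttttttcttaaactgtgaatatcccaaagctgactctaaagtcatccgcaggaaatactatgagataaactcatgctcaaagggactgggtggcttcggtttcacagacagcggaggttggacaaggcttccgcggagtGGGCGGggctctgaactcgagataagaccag
The *St8sia1* window held 1 GGGCGG and 1 CCAAT and the *Cd274* window 1 GGGCGG, motifs present in 32.7% and 33.8% of 32851 promoter windows of this length. TATAAA, in 12.4% of windows, had no match in these 3. The palindromic motif TTCNNNGAA and the motif of interferon regulatory factors, a pair of GAAA blocks with any 2 bases between them, found in 7.02% and 2.98% of these windows on either strand, had no match in the windows of the 6 members searched or of *Cd274*. GC content was 63.6% for *St8sia1*, 46.4% for *Ucn3* and 50.4% for *Cd274*.

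GD3 synthase works in the middle of the ganglioside pathway, after *Ugcg*, which makes glucosylceramide, *B4galt5* and *B4galt6*, which make lactosylceramide, and *St3gal5*, which makes GM3, the substrate of GD3 synthase. Of 12 other genes of ganglioside synthesis and breakdown, 11 were tested and 0 were called in each of the 3 comparisons. At an unadjusted p under 0.05, 2 of the 11 were higher in PD-L1high against control, 0 in PD-L1low against control and 1 in PD-L1high against PD-L1low, beside 4.13% and 4.24% of all genes in the first and the last comparison. The median log2 fold change of the 11 was 0.09, -0.04 and 0.19 in these comparisons, beside -0.02, 0.00 and -0.00 over all tested genes. *Ugcg* had 39.5 ± 8.43 CPM in control, 40.7 ± 1.69 in PD-L1low and 50.4 ± 1.35 in PD-L1high cells, with log2 fold changes of 0.37 against control and 0.35 against PD-L1low (adjusted p 0.493 and 0.561, edgeR). *B4galt6* differed by 0.22 against control (adjusted p 0.630). *St3gal5* had 49.0 to 53.4 CPM in the 3 group means and *St8sia5*, the sialyltransferase that acts later on the same chain, 43.5 to 47.7. *B4galnt1*, which starts the complex gangliosides and competes for the same substrates, was the member of this list that did not reach the filter.

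**Figure D3:**
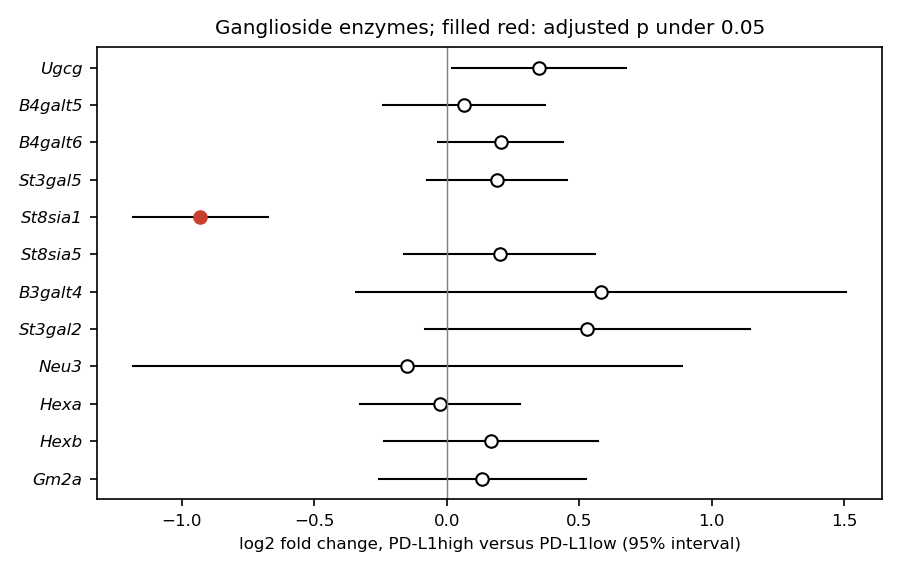
Fitted log2 fold change between PD-L1high and PD-L1low cells (points) with 95% intervals (lines) for St8sia1 and 11 other tested ganglioside genes, in pathway order from top to bottom. St8sia1 is at -0.93 and filled for an adjusted p under 0.05, and the other 11 are not called and have a median of 0.19.

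The mature beta cell peptide gene *Ucn3* (chromosome 13, 3940688 to 3945349, minus strand) showed no called difference. Control replicates 1 to 4 had 211, 351, 376 and 409 CPM, PD-L1high replicates 1 to 4 had 224, 320, 357 and 319, and PD-L1low replicates 2 to 4 had 325, 408 and 341. The lowest values of control and PD-L1high both came from replicate 1, and all 3 groups overlapped. The log2 fold changes were -0.12 in PD-L1high against control (95% interval -0.34 to 0.10, adjusted p 0.815), -0.05 in PD-L1low against control (-0.30 to 0.20, adjusted p 0.9998) and -0.07 in PD-L1high against PD-L1low (-0.32 to 0.18, adjusted p 0.917). Without the replicate term the second was 0.09, the sign of the group means (337 CPM in control and 358 in PD-L1low). The interval between the treated fractions spans 0.801 to 1.13 times the PD-L1low level, so a change to the extent seen for *St8sia1* lies outside it. Of 8 genes for receptors and binding partners of urocortin 3 and neuropeptide Y, 1 passed the filter. It was *Dpp4*, which encodes a peptidase that cleaves neuropeptide Y, with 149 ± 22.2 CPM in control, 153 ± 6.19 in PD-L1low and 142 ± 22.3 in PD-L1high cells. Its log2 fold changes, fitted within replicate numbers, were -0.07 to -0.01, so that in PD-L1low against control the fit and the group means differed in sign.

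*Syt4* (chromosome 18, 31437808 to 31447406, minus strand) had 262, 463, 290 and 418 CPM in control replicates 1 to 4. PD-L1high replicates had 343, 376, 415 and 408 CPM, and PD-L1low replicates 2 to 4 had 303, 351 and 400. The PD-L1high and PD-L1low values lay within the span of the control libraries. The log2 fold change was 0.13 in PD-L1high against control (95% interval -0.16 to 0.43, adjusted p 0.858), -0.10 in PD-L1low against control (-0.43 to 0.23) and 0.23 between the treated fractions (-0.09 to 0.56, adjusted p 0.731). Of 21 other synaptotagmins and partners in vesicle fusion, 16 were tested and 0 were called in each comparison, with median log2 fold changes of -0.06, -0.04 and 0.02. The smallest p in both comparisons of PD-L1high belonged to *Syt11*, at 49.2 ± 10.7 CPM in control, 49.6 ± 3.22 in PD-L1low and 58.8 ± 7.50 in PD-L1high cells (adjusted p 0.610 against control and 0.541 against PD-L1low, edgeR). *Stx1a*, the syntaxin of the plasma membrane that insulin granules fuse with, had 3.98 ± 1.23, 2.36 ± 1.31 and 4.43 ± 1.00 CPM.

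*Npy* (chromosome 6, 49822710 to 49829507, plus strand) was close to the limit of detection. Control replicates 1 to 4 had 10, 5, 19 and 6 counts, PD-L1high replicates 1 to 4 had 5, 5, 11 and 0, and PD-L1low replicates 2 to 4 had 1, 1 and 0. In CPM these were 0.375 to 1.15 in control, 0 to 0.865 in PD-L1high and 0 to 0.0828 in PD-L1low libraries, where 3 counts correspond to 0.181 to 0.312 CPM over the libraries. *Npy* passed the filter only through control replicates 1 and 3 and PD-L1high replicate 3, and fell below it when any of these was left out. Its comparisons with PD-L1low therefore concern a gene kept through the groups where it was higher. Every PD-L1low library was below every control library, as for 1.43% of all genes, and PD-L1high overlapped both. Pooled over libraries there were 40 counts in control and 2 in PD-L1low, a ratio of control to PD-L1low of 14.9 per library total with a 95% interval of 3.86 to 127 that covers counting error only. The ratio of PD-L1high, with 21 counts, to PD-L1low was 8.25 (2.02 to 72.6). No comparison was called, with unadjusted p of 0.286, 0.0168 and 0.0768 and adjusted p of 0.830, 0.9998 and 0.642 (edgeR) for PD-L1high against control, PD-L1low against control and PD-L1high against PD-L1low. *Npy* and the PP markers *Ppy* and *Pyy* were all lowest in PD-L1low libraries. *Ppy* had 171, 16.8 and 269 CPM on average in control, PD-L1low and PD-L1high cells and fell in PD-L1low against control (log2 fold change -3.49, adjusted p 1.33e-09, edgeR), and *Gcg*, the glucagon gene, had 658, 209 and 882 CPM and was higher in PD-L1high than in PD-L1low cells (adjusted p 0.0163). The part of these cells in the *Npy* values was not tested.

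Other genes of the mature beta cell were measured at high counts. Of 19 such genes, which include transcription factors, insulin genes, glucose sensing and the ATP-sensitive potassium channel, 19 were tested and 0 were called in each comparison. Their median log2 fold changes were -0.03 in PD-L1high against control, -0.11 in PD-L1low against control and 0.05 between the treated fractions. *Slc30a8*, the zinc transporter of insulin granules, had 765 ± 49.9 CPM in control, 740 ± 61.6 in PD-L1low and 590 ± 111 in PD-L1high cells, with a log2 fold change of -0.39 against control (unadjusted p 0.00218, adjusted p 0.156, edgeR). *Glp1r*, the receptor of the incretin GLP-1, had log2 fold changes of -0.32 against control and -0.38 against PD-L1low (adjusted p 0.359 and 0.294, edgeR). At an unadjusted p under 0.05, 4 of the 19 were lower in PD-L1high against control, where 3.52% of all genes were. *Mafa* and *Nkx6-1*, transcription factors of mature beta cells, had log2 fold changes of -0.31 and -0.23 in PD-L1low against control (adjusted p 0.9998 for both, edgeR).

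Of 15 genes of immature beta cells or genes that mature beta cells normally silence, 7 passed the filter and 0 were called in each comparison. *Aldh1a3*, a marker of dedifferentiated beta cells, had 0.132 ± 0.155 CPM in control, 0.354 ± 0.417 in PD-L1low and 0.855 ± 0.301 in PD-L1high cells (adjusted p 0.530 in PD-L1high against control, edgeR). *Ldha*, the lactate dehydrogenase gene that beta cells keep low, had 0.756 ± 0.741, 1.31 ± 0.222 and 0.145 ± 0.115 CPM. The group means of both were at most 1.31 CPM. *Igf1r*, the receptor of insulin-like growth factor 1, was the abundant gene of this list, at 611 to 662 CPM in the group means.

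*Cfap126* (chromosome 1, 171113918 to 171126967, plus strand, 8 annotated transcripts) was lowly expressed in all groups, with 38 to 102 counts per library. Control replicates 1 to 4 had 2.95, 6.00, 6.16 and 7.08 CPM, PD-L1high replicates 3.73, 7.63, 5.74 and 6.33, and PD-L1low replicates 2 to 4 had 6.87, 5.47 and 5.48. The 3 groups overlapped, and replicate 1 was lowest in both groups that included it. Log2 fold changes were 0.10 in PD-L1high against control (95% interval -0.46 to 0.66, adjusted p 0.960), -0.08 in PD-L1low against control (-0.70 to 0.53, adjusted p 0.9998) and 0.18 between the treated fractions (-0.44 to 0.80, adjusted p 0.914). Without the replicate term the last 2 turned to 0.10 and -0.02, the signs of the group means of 5.55 CPM in control, 5.94 in PD-L1low and 5.86 in PD-L1high cells. Of 19 genes of planar cell polarity and cilium formation, 18 were tested and 0 were called in each comparison, with medians of -0.06, 0.03 and -0.13. *Celsr2*, a cadherin of the planar cell polarity complex, had 17.4 ± 2.69 CPM in control, 13.9 ± 2.46 in PD-L1low and 10.9 ± 2.56 in PD-L1high cells (adjusted p 0.228 in PD-L1high against control, edgeR). *Vangl2*, the core polarity protein, had 2.58 ± 0.472, 2.95 ± 0.966 and 1.33 ± 0.417 CPM (adjusted p 0.650 against control and 0.540 against PD-L1low). *Wnt4*, a secreted ligand of noncanonical Wnt signalling, had 181 ± 33.4, 164 ± 27.1 and 201 ± 17.5 CPM, a log2 fold change of 0.40 between the treated fractions (adjusted p 0.258, edgeR).

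**Figure D4:**
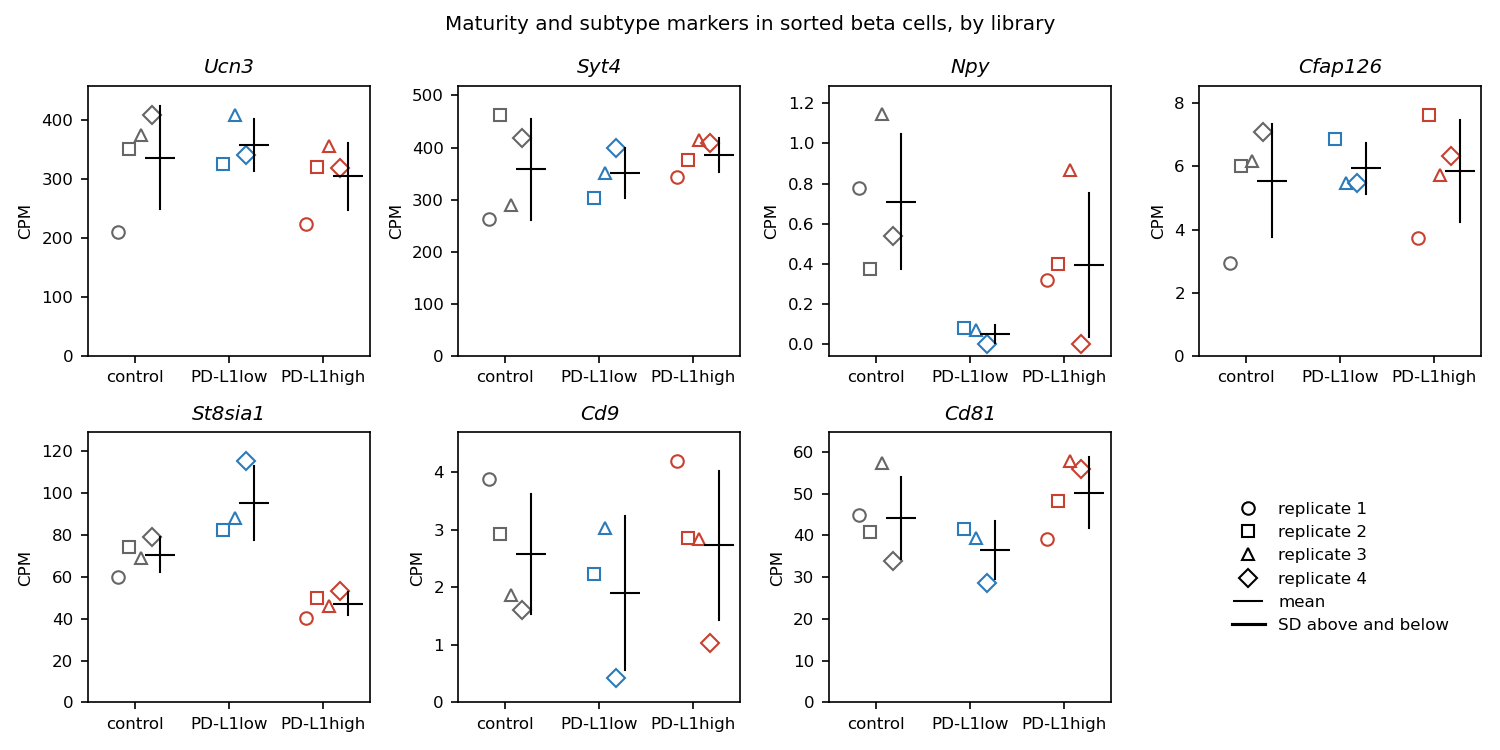
Level of each of the 7 members in CPM (linear axes) in control, PD-L1low and PD-L1high libraries, with 1 symbol per replicate number, a horizontal mark at the mean and a vertical line of 1 SD to either side. St8sia1 shows 3 separate groups, Npy is at or below 0.0828 CPM in PD-L1low, and the other 5 members overlap between all groups.

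The tetraspanin gene *Cd9* (chromosome 6, 125460266 to 125494791, minus strand) had few counts. Control replicates 1 to 4 had 3.88, 2.92, 1.87 and 1.61 CPM, PD-L1high replicates 4.18, 2.86, 2.83 and 1.04, and PD-L1low replicates 2 to 4 had 2.24, 3.03 and 0.421. The lowest library in each of the 3 groups was replicate 4. Its log2 fold changes were -0.01, -0.40 and 0.39 for PD-L1high against control, PD-L1low against control and PD-L1high against PD-L1low, and the widest 95% interval, of the second, ran from -1.55 to 0.74. No difference of *Cd9* was detectable at this depth, and its 95% interval in PD-L1high against control, -0.97 to 0.94, includes the value of -0.58 found for *St8sia1*, its partner in defining subtypes.

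*Cd81* (chromosome 7, 143052739 to 143067934, plus strand, 6 annotated transcripts) was measured more precisely. Control replicates 1 to 4 had 44.9, 40.9, 57.3 and 33.8 CPM, PD-L1high replicates 39.1, 48.2, 57.7 and 55.9, and PD-L1low replicates 2 to 4 had 41.5, 39.5 and 28.6. PD-L1high replicate 1 lay within the range of PD-L1low. The log2 fold change between the treated fractions was 0.51 (standard error 0.171, 95% interval 0.15 to 0.88), with an unadjusted p of 0.00911 that did not hold after adjustment (adjusted p 0.375, and 0.0980 to 0.918 over 20 alternatives, edgeR, DESeq2 and limma). Against control it was 0.19 in PD-L1high (-0.13 to 0.52, adjusted p 0.801) and -0.32 in PD-L1low cells (-0.69 to 0.05, adjusted p 0.9998). An unadjusted p under 0.05 was reached by 8.52% of all genes between the treated fractions. Noncoding genes that overlap *Syt4*, *Cd9* and *Cd81* on the opposite strand (*Gm26658*, *Gm26728* and *R74862*) had at most 1.63, 0.331 and 2.04 CPM, and reads of such pairs cannot be told apart if counting ignored strand.

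Among 31 other tetraspanins and their partners, 26 were tested and 1 was called, as higher in PD-L1high than in PD-L1low cells, where 0.640% of all genes were. It was *Tspan8*, a tetraspanin of epithelial surfaces, with 21.1 ± 3.07 CPM in control, 12.01 ± 1.04 in PD-L1low and 28.4 ± 4.78 in PD-L1high cells (log2 fold change 1.26, adjusted p 0.00132, edgeR). Against control its log2 fold changes were 0.43 in PD-L1high (adjusted p 0.444) and -0.84 in PD-L1low cells (adjusted p 0.170). The list's median log2 fold change between the treated fractions was 0.13. *Tspan14* and *Tspan12* had log2 fold changes of 0.73 in PD-L1high against control and -3.01 in PD-L1low against control (adjusted p 0.494 and 0.9998, edgeR), the latter with a mean of 0.103 CPM in PD-L1low.

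Of 8 other markers used to describe beta cell heterogeneity, 0 were called in PD-L1high against control, 1 fell in PD-L1low against control and 2 were higher in PD-L1high than in PD-L1low cells, where 0.640% of all genes were. At an unadjusted p under 0.05, 5 of the 8 were lower in PD-L1low against control, beside 181 of 16252 genes. Between the treated fractions 5 were higher, beside 4.24% of all genes. The list's median log2 fold changes were 0.05, -0.44 and 0.57 in the 3 comparisons. It includes *Ttr* and *Rbp4*, which also served as alpha and delta cell markers. *Gpx3*, a secreted glutathione peroxidase, had 12.6 ± 4.11 CPM in control, 5.08 ± 2.30 in PD-L1low and 16.4 ± 3.91 in PD-L1high cells. In PD-L1low against control its log2 fold change was -1.49 (adjusted p 0.0485), a direction called for 0.0185% of genes, and it was higher by 1.91 in PD-L1high than in PD-L1low cells (adjusted p 0.00104, edgeR). *Tfrc*, which encodes CD71, a marker of the sort itself, had 243 ± 22.1, 190 ± 26.4 and 342 ± 39.7 CPM and was higher by 0.80 in PD-L1high than in PD-L1low cells (adjusted p 0.00609), and by 0.48 than in control (adjusted p 0.0823). *Tspan8*, *Gpx3* and *Tfrc* had their lowest mean in PD-L1low cells, the group in which *Ppy*, *Pyy*, *Gcg* and *Sst* were also lowest, and the part of those cells in the 3 differences was not tested.

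**Figure D5:**
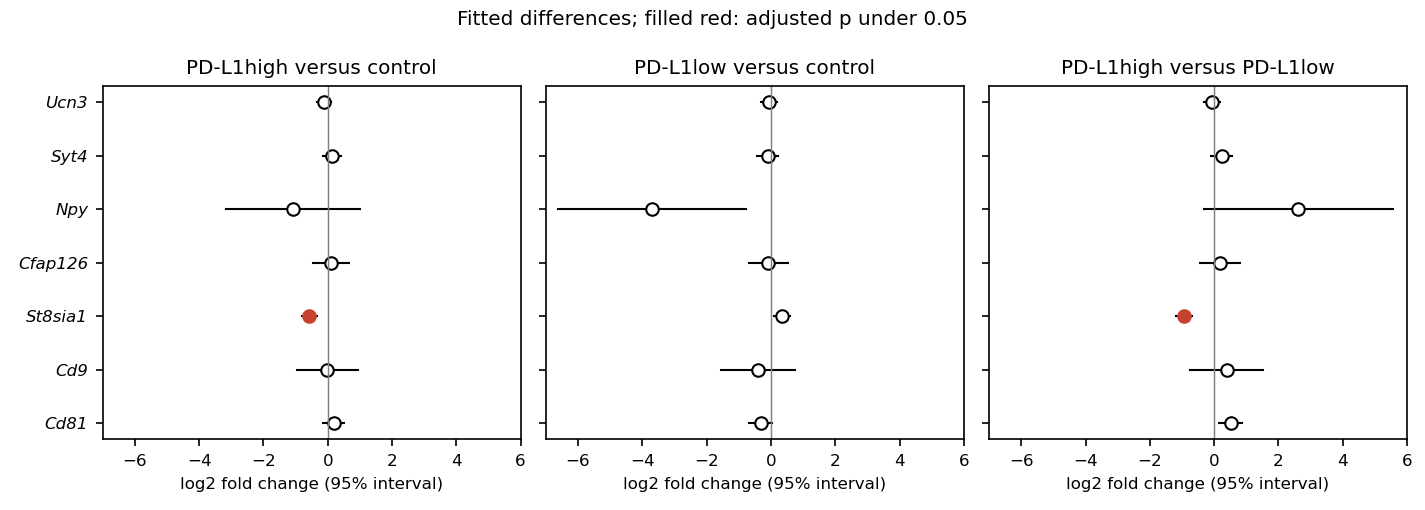
Fitted log2 fold changes of the 7 members (points) with 95% intervals (lines) in the 3 comparisons, filled where the adjusted p is under 0.05. St8sia1 is filled at -0.58 against control and at -0.93 against PD-L1low in PD-L1high cells, and the intervals are widest for Npy and Cd9, the members with the fewest counts.

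The genes whose level followed each member most closely over the 11 libraries were listed by Pearson's r of log2 CPM among genes with a mean of at least 10 CPM, as a description of libraries that share depth and culture. For *St8sia1* they were *Stard4* (r = 0.945), which carries cholesterol between membranes, *Lgi2* (0.944) and *Cnot8* (0.936), a deadenylase subunit. The most opposite genes, chosen after their values were seen, were the interferon regulatory factors *Irf2* (-0.957) and *Irf7* (-0.950). Such values, out of 8843 genes searched over 11 libraries, are not particular to *St8sia1*. The most opposite genes of the other members had r of -0.864 to -0.968. The r of *St8sia1* also takes in its differences between the 3 groups, and a link to these factors was not tested. *Ucn3* was followed by *Stard10* (0.958), a lipid transfer protein gene of beta cells, *Tmem206* (0.958) and *Pomt2* (0.945), and *Syt4* by *Ybx3* (0.984), *Tmed2* (0.983) and *Spcs2* (0.983), the last 2 of the secretory pathway. *Cfap126* was followed by *Gne* (0.942), the entry enzyme of sialic acid synthesis, *Elmo2* (0.933) and *Abat* (0.925). For *Cd81* they were *Ocrl* (0.909), *Tmem222* (0.889) and *Cox18* (0.862), for *Cd9* *Ctdsp2* (0.946), *Pde4d* (0.908) and *Zc3h18* (0.899), and for *Npy* *Nsfl1c* (0.958), *Acd* (0.879) and *Rnf41* (0.878). Counts per library were only 6 to 65 for *Cd9* and 0 to 19 for *Npy*, so counting error weighs on the r values of these members.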

How the data were processed

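RNA-seq of 11 libraries of sorted beta cells was analysed. According to the study's methods, strand-specific libraries were made from 5 ng of total RNA with random primers and rRNA depletion (NuGEN Ovation Solo) and sequenced as paired 75-base reads, aligned to GRCm38.p6 by STAR 2.5.2b using GenCode M23, with RSEM for quantification. The version of RSEM, whether counting used strand, and whether duplicates were removed are not given in the sources used here. The deposited expected counts were made by the authors per gene and library and are not normalized. The deposited TPM values and the transcript lengths in bases behind them were also computed by the authors with RSEM.

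Expected counts were rounded, which moved library totals by no more than 0.000388%. Genes were tested with edgeR 4.0.16 (R 4.3.3), robust quasi-likelihood test, TMM scaling, filterByExpr with a count minimum of 10, condition and replicate number as terms and all 11 libraries. The authors ran DESeq2 1.32.0 with batch in the formula, for which the replicate number stood in here. Calls had an adjusted p under 0.05 (Benjamini-Hochberg over 16252 genes), and the common biological coefficient of variation was 0.258. CPM was scaled by TMM. Group values are mean ± SD, and intervals and floors from counts cover counting error only. In 10 pairs of libraries with the same number in different groups, deviations from group means correlated at -0.329 to 0.408 (median 0.124), so the numbers were not shown to pair the libraries.

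The 7 members and the gene lists were chosen with earlier results of these data known. Named were all members, from each list up to 4 called genes, or up to 2 with the smallest p where none was called, the 3 genes most like each member, and *Cd274*, apart from an item that is not reported here. Of the 5 motifs, the GC box, CCAAT box and TATA box were added after seeing the data. Symbols were available for 55141 genes, with 107 duplicates. *Ero1b* was matched by an older symbol. Positions come from GENCODE M21. The scripts were tested on simulated counts. Alternatives were other scalings, filters, tools (DESeq2 1.42.0, limma 3.58.1), samples and replicate terms. The order of the 3 groups without overlap, and each alternative to it, was examined after seeing the data.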

Additional observations from a re-analysis of the deposited data

Results flagged for a closer look

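*St8sia1* had fitted log2 fold changes of opposite sign against control in the treated fractions, which share the control libraries. They were -0.58 in PD-L1high and 0.35 in PD-L1low cells, the second not called (adjusted p 0.9998, edgeR). In TPM, the control libraries overlapped both fractions. PD-L1high was lower than PD-L1low in 3 of 3 replicates, which had to follow because these groups do not overlap in CPM. The direct test of PD-L1high against PD-L1low gave -0.93 (adjusted p 0.000593, edgeR). That test does not show whether PD-L1low differs from control. In 14 groups of 4 libraries, 0 had a library far from the others by Dixon's criterion, which flags about 1 group in 20 by chance. Such groups come from control and PD-L1high only, since PD-L1low has 3 libraries, so the PD-L1low values of *St8sia1* were not covered.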

How the results depend on the processing

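The call of *St8sia1* between PD-L1high and PD-L1low was kept in 20 of 20 alternatives and that against control in 15 of 20, and no other member was called in any. Without the replicate block, 0 members were called in PD-L1high against control, where *St8sia1* had an adjusted p of 0.0753. That fit called 127, 12 and 88 genes in PD-L1high against control, PD-L1low against control and PD-L1high against PD-L1low, beside 161, 13 and 119 with the block. In the same order, the genes called were 328, 91 and 354 with no filter on low counts, 249, 47 and 202 with DESeq2, and 245, 27 and 180 with limma-voom. In PD-L1low against control, 33 genes were called from the libraries of these 2 groups alone and 43 from replicates 2 to 4 alone. Leaving out each library in turn gave 110 to 269 genes in PD-L1high against control (269 without control replicate 2), 8 to 43 in PD-L1low against control (43 without control replicate 1, 41 without PD-L1high replicate 1 and 8 without PD-L1low replicate 2) and 64 to 143 in PD-L1high against PD-L1low, and 0 to 1 members in PD-L1high against control. The cause of these shifts was not tested, except that fewer libraries were used when any was left out. Some differences that were called in no analysis changed sign. In PD-L1high against control, *Cd9* had 0.047 from the 2 groups alone, 0.094 without the block, 0.16 with limma-voom and -0.28 to 0.31 when a library was left out, beside -0.01. In PD-L1low against control, without the block, *Ucn3* had 0.090 and *Cfap126* 0.10, beside -0.05 and -0.08, and *Cfap126* had -0.022 in PD-L1high against PD-L1low, beside 0.18. When a library was left out, the ranges in PD-L1low against control were -0.13 to 0.041 for *Ucn3*, -0.24 to 0.10 for *Syt4*, -0.18 to 0.029 for *Cfap126* and -0.89 to 0.030 for *Cd9*, and that of *Ucn3* in PD-L1high against PD-L1low was -0.11 to 0.0099. The order PD-L1high below control below PD-L1low held for 3 genes with scaling by library size, *St8sia1* among them, and for 0 genes in TPM. When a library was left out it held for 4 to 10 genes. That count could not fall below 3, since removing a library creates no overlap. Depth limits *Npy* and *Cd9*: *Npy* had a value in 14 of 20 alternatives and *Cd9* in 19 of 20.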
